A study of Arabidopsis thaliana with 40 samples.

Results

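The set described here holds 51 of the 22746 probe sets on arrays of the Arabidopsis thaliana shoot apex. Their signal climbed over 7 long days in both wild types and in lfy-12, and climbed little or not at all in co-2 and ft-2. They were selected on measured values. The signal at day 7 had to exceed that at day 0 by at least 1 log2 unit (a doubling) in Col and in Ler and by under 0.5 in either of co-2 and ft-2, and the change in lfy-12 had to be at least 0.5 of that in Col. Of 188 probe sets that gained at least 1 unit in both wild types, 82 also stayed under 0.5 in both mutants and 53 met the lfy-12 condition as well. Probe sets of UFO and BAT1 were then left out by name. The values of days 0 and 7 chose the members and are given as a description only, as is every change counted from day 0. The contrasts tested compare only arrays of days 3 and 5, which the selection did not use. The spread behind their p-values is shared over all 40 arrays, those of days 0 and 7 included.

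The mutants were co-2 (CONSTANS), ft-2 (FLOWERING LOCUS T) and lfy-12 (LEAFY), and the wild types were Ler (Landsberg erecta) and Col (Columbia, Col-0). The labels do not state the backgrounds of the mutants. From what is known of the alleles, co-2 and ft-2 are set here against Ler, and lfy-12 against Col. All plants spent 30 days in short days (9 h light, 15 h dark) at 21 °C before moving to long days (16 h light, 8 h dark), and apices were taken at 0, 3, 5 and 7 days, giving 20 combinations of genotype and day with 2 arrays each. Day length, plant age and sampling day changed together in this design. Nothing in the labels ties the 2 arrays of a group to separate plants. The p-values therefore speak only to the spread between these samples, which may be technical. Arrays are numbered 1 and 2 within a group as in the labels.

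In Arabidopsis, lengthening days are read in the leaf. CO protein, a transcriptional regulator that persists in the light of a long evening, activates FT in the leaf veins, and FT protein travels through the phloem to the shoot apex. There it acts with the bZIP protein FD and switches on floral promoters, and later LFY, a transcription factor that gives new primordia their floral fate. Loss of CO or FT delays the switch in long days, whereas loss of LFY leaves the switch in place and alters what the primordia become.

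Of the 51 members, 23 list a single gene, 1 lists 2 genes (AT1G21400 and AT5G34780) and 27 list none. A single gene is listed for 45.1% of the members and for 59.4% of all probe sets. The 23 genes are spread over the 5 chromosomes, with 5, 3, 6, 4 and 5 on chromosomes 1 to 5, and the closest pair, AT1G01130 and AT1G02810, has 175 protein-coding genes between its members. Here and below a gene counts as measured where a probe set lists it alone. As 8730 of all probe sets list no gene, a gene not measured in this sense may still have an unnamed probe set. Families were counted by the start of the gene symbol, so genes listed only by locus are missed. The named genes include 2 of 47 measured genes under UGT (UDP-glycosyltransferases) and 1 of 9 under XTH (xyloglucan endotransglucosylases). They also include 1 of 11 under IQD (IQ-domain genes) and 1 of 21 cytochrome P450 genes whose symbols start with CYP71. Among all probe sets that list a single gene, 23 of 13513 are members. Under UGT, 3 genes gained at least 1 unit in both wild types. The family counts are small and were not tested.

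Array quality bears on some of the values. The medians of the arrays lay between 6.91 and 7.07 log2 units and their lower quartiles between 4.66 and 4.92. Replicates correlated at 0.990 to 0.997 over all probe sets. In 3 arrays, transcripts that mark the other wild-type background were present: they reached 8.62% of their level in that background in lfy-12 day 5 array 2, 5.62% in co-2 day 3 array 1 and 4.39% in ft-2 day 0 array 1. In the other 37 arrays this share lay between -1.01% and 0.825%. Counts that rest on these arrays are given below with and without them. The arrays of Ler day 0, which enter the selection, had the lowest replicate correlation (0.9904). The summed linear signal of the 2 measured leaf genes, LHCB4.1 and RCA, at day 0 was 7430 and 6762 in co-2, 10959 and 12672 in ft-2, and 13411 and 6951 in Ler. Ler day 0 array 1 thus stood apart from its replicate. Without it, 52 probe sets met the selection, 47 of them members. The part of leaf transcripts in the day 0 values was not tested. No probe set was listed for LFY, CO or FT, so the labels of the mutants could not be checked on those transcripts. Of the shoot meristem markers, 2 of 8 were measured: CLV3 lay between percentiles 31.4 and 43.3 of the arrays, and UFO between 32.0 and 59.7. The floral organ marker SPL/NZZ, the only one measured of 9, lay between percentiles 21.9 and 34.7. No marker of vascular tissue (7 genes), root (5 genes) or epidermis had a probe set listed for it alone.

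At the start of the long days the members stood at much the same level in every genotype. Their mean signal at day 0 was 6.23 ± 0.03 in co-2, 6.26 ± 0.02 in ft-2, 6.18 ± 0.11 in Ler, 6.19 ± 0.07 in lfy-12 and 6.22 ± 0.08 in Col (log2 units, SD, n = 2). Member by member, the difference at day 0 ran from -0.65 to 0.81 for co-2 minus Ler, with a median of 0.06, and from -0.69 to 0.67 for ft-2 minus Ler, with a median of 0.10. The median member lay at percentile 42.3 of mean signal (range 18.5 to 90.6). At day 0, 9 members in co-2, 8 in ft-2, 7 in Ler, 9 in lfy-12 and 9 in Col lay under the lower quartile, where weak signal narrows measured differences. By day 7, 0 lay there in Ler and 0 in Col.

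Through days 0, 3, 5 and 7 the member mean was 6.23, 6.21, 6.33 and 6.47 in co-2, and 6.26, 6.20, 6.30 and 6.40 in ft-2. In Ler it was 6.18, 6.58, 7.17 and 7.78, in lfy-12 6.19, 6.61, 6.80 and 7.28, and in Col 6.22, 6.68, 6.93 and 7.67. The means of co-2 and ft-2 moved little over the week, while those of Ler, lfy-12 and Col climbed at each step. The median member had covered 27.3% of its day 7 change by day 3 and 64.4% by day 5 in Ler, 35.0% and 55.9% in lfy-12, and 26.1% and 46.4% in Col. These shares use day 0 and day 7 values and carry no test.

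**Figure D1:**
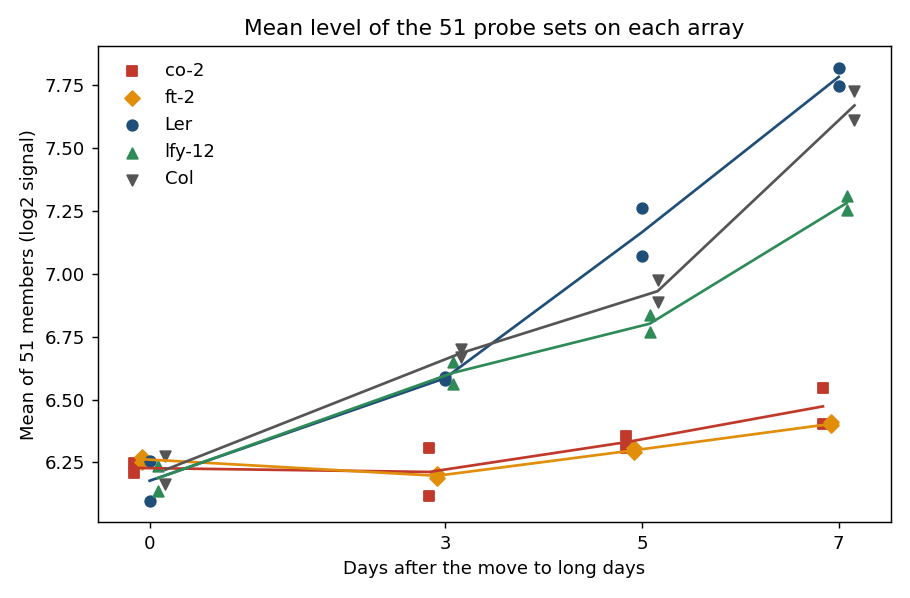
Mean log2 signal of the 51 members on each of the 40 arrays (vertical axis) by day after the move to long days (horizontal axis), with 1 point per array and lines through the group means of the 5 genotypes. By day 5 the 2 Ler arrays stand at 7.26 and 7.07, above all 4 arrays of co-2 and ft-2.

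Before the values of single genes, the day 5 comparison shows how general the shortfall in the mutants was. With limma, 38 of the 51 members were lower in co-2 than in Ler at day 5 (adjusted p under 0.05), where 2.77% of all probe sets were called lower, and 43 were lower in ft-2 than in Ler, where 3.46% were. No member was called higher in either, where 6.83% and 7.87% of all probe sets were. The median member differed by -0.76 (range -2.41 to 0.18) in co-2 minus Ler and by -0.73 (range -2.33 to 0.03) in ft-2 minus Ler, against medians of 0.06 and 0.06 over all probe sets. For 47 members both co-2 arrays lay under both Ler arrays, and for 48 members both ft-2 arrays did. How many of all probe sets were separated in this way was not counted, so these counts have no background. Both comparisons use the same 2 Ler arrays. 37 members were called lower in both mutants, and 14 of these list a single gene. The share of all probe sets called lower in both was not counted, but cannot exceed the 2.77% called in co-2. Without 1 array at a time the counts ranged from 29 to 38 in co-2 and from 29 to 38 in ft-2. In a bulk apex, fewer cells of a type and less RNA per cell cannot be told apart.

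The enzymes of sugar conjugation come first among the named genes. UGT84A3 encodes a glucosyltransferase that acts on hydroxycinnamic acids. At day 5 its signal was 4.73 and 4.41 in co-2, 4.73 and 4.61 in ft-2, and 6.04 and 5.70 in Ler. Both mutants lay wholly under Ler, by -1.30 ± 0.16 in co-2 (SE, limma adjusted p = 3.49e-06) and -1.20 ± 0.16 in ft-2 (7.51e-06). At day 3 the groups had been much closer, at 4.65 and 4.83 in co-2, 4.99 and 4.73 in ft-2, and 5.10 and 4.84 in Ler. Within Ler the signal was higher at day 5 than at day 3 by 0.90 ± 0.16 (adjusted p = 0.000895). That call was lost without Ler day 5 array 1 (adjusted p = 0.0545).

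UGT71C3, a second UDP-glycosyltransferase, parted from Ler earlier. At day 3 its signal was 5.02 and 5.27 in co-2, 4.96 and 4.92 in ft-2, and 5.74 and 5.88 in Ler. It was lower by -0.67 ± 0.15 in co-2 (limma adjusted p = 0.00896) and by -0.88 ± 0.15 in ft-2 (0.000541). At day 5 it stood at 5.40 and 5.43 in co-2, 5.41 and 5.38 in ft-2, and 6.54 and 6.14 in Ler, with differences of -0.93 and -0.94. The groups were separate on both days. The day 3 call in co-2 was lost without Ler day 3 array 2 or without co-2 day 3 array 1 (adjusted p up to 0.126).

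SPT and JKD are regulators of development. SPT (SPATULA) is a bHLH transcription factor needed for the carpel margins of the flower. Its signal at day 5 was 7.16 and 7.23 in co-2, 7.17 and 7.09 in ft-2, and 8.05 and 7.87 in Ler. The mutants lay under both Ler arrays, by -0.77 ± 0.13 (limma adjusted p = 0.000184) in co-2 and -0.83 ± 0.13 (4.89e-05) in ft-2. At day 3 Ler already stood at 7.57 and 7.57, against 6.96 and 7.23 in co-2 and 7.06 and 7.22 in ft-2. Those day 3 differences, -0.47 and -0.43, passed narrowly (adjusted p = 0.0383 and 0.0495), and the first was lost without any of 3 of its 4 arrays, Ler day 3 arrays 1 and 2 and co-2 day 3 array 1, and the second without any of its 4. In lfy-12 the day 5 values were 7.25 and 7.40, against 7.38 and 7.68 in Col, a difference that was not called (-0.21 ± 0.13).

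JKD (JACKDAW) is a zinc finger protein known from the root, where it works with SHORT-ROOT and SCARECROW. At day 5 it read 6.72 and 6.61 in co-2, 6.51 and 6.74 in ft-2, and 7.36 and 7.09 in Ler. Both differences were called, -0.56 ± 0.14 in co-2 (limma adjusted p = 0.0101) and -0.60 ± 0.14 in ft-2 (0.00468). Each was lost without Ler day 5 array 1, the co-2 call also without co-2 day 5 array 2 and the ft-2 call also without ft-2 day 5 array 1. REM24 is the RefSeq synonym of AT2G16210, a B3-domain gene of the reproductive meristem family. It read 4.55 and 4.45 in co-2, 4.39 and 4.21 in ft-2, and 5.30 and 5.38 in Ler at day 5. It was lower by -0.84 ± 0.13 in co-2 (adjusted p = 9.97e-05) and by -1.03 ± 0.13 in ft-2 (4.04e-06), and both calls held without any 1 array.

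**Figure D2:**
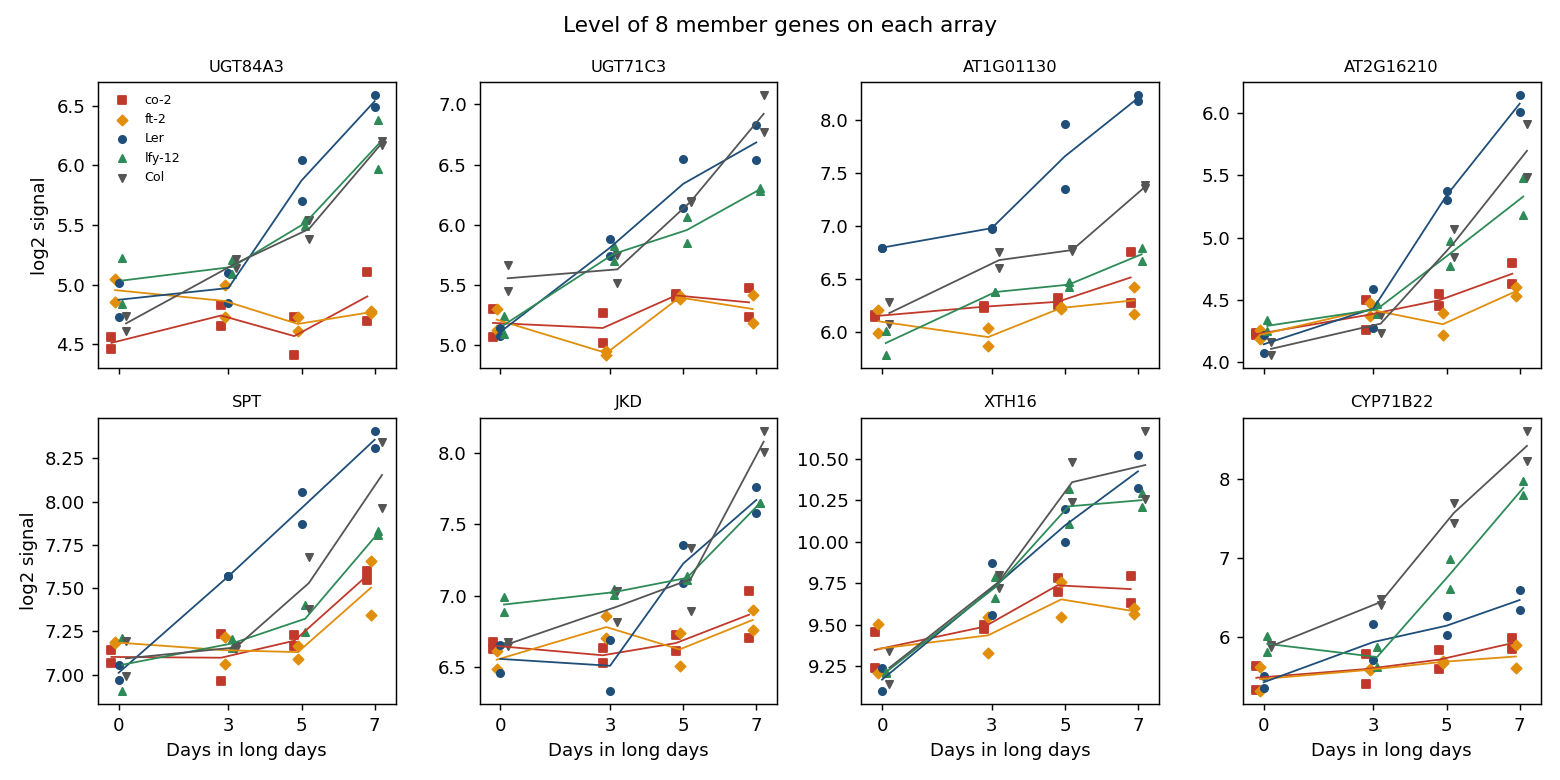
Log2 signal of 8 member genes on each array (vertical axis) by day after the move to long days (horizontal axis), 1 panel per gene and 1 colour per genotype, with lines through group means. UGT84A3 reads 4.73 and 4.41 in co-2 at day 5, under the 6.04 and 5.70 of Ler.

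Genes of the cell wall and cell structure follow. AT1G02810, of the pectin methylesterase family, read 4.83 and 4.87 in co-2, 4.80 and 4.76 in ft-2, and 5.65 and 5.58 in Ler at day 5. It was lower by -0.76 ± 0.13 (limma adjusted p = 0.000278) in co-2 and -0.83 ± 0.13 (6.97e-05) in ft-2. XTH16, which cuts and rejoins xyloglucan in the wall, read 9.78 and 9.70 in co-2, 9.76 and 9.55 in ft-2, and 10.00 and 10.20 in Ler, and the ft-2 difference of -0.45 ± 0.13 was called (adjusted p = 0.0235) while that of co-2, -0.36 ± 0.13, was not (0.0751). That call was lost without Ler day 5 array 2 or ft-2 day 5 array 2.

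IQD26, a protein with calmodulin-binding IQ motifs, read 7.65 and 7.92 in co-2, 7.69 and 7.86 in ft-2, and 8.49 and 8.51 in Ler at day 5. The Ler arrays lay above all mutant arrays, and both differences, -0.72 and -0.72, were called (limma adjusted p = 3.58e-05 and 2.24e-05). KICP-02, a kinesin, read 7.00 and 7.11 in co-2, 6.88 and 6.94 in ft-2, and 7.76 and 7.52 in Ler. It was called lower by -0.58 in co-2 (adjusted p = 0.0141) and by -0.73 in ft-2 (0.00186), and the co-2 call was lost without Ler day 5 array 1, co-2 day 5 array 1 or co-2 day 5 array 2.

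Of the genes known here only by locus, AT1G01130 had the largest mean shortfall at day 5 among all members with a single gene. At day 5 it read 6.32 and 6.25 in co-2, 6.22 and 6.23 in ft-2, and 7.96 and 7.35 in Ler, lower by -1.37 ± 0.15 in co-2 (limma adjusted p = 2.89e-07) and -1.43 ± 0.15 in ft-2 (1.09e-07). At day 3 it was lower by -0.74 and -1.03. It was unequal before the long days began: at day 0 it read 6.14 and 6.16 in co-2 and 6.21 and 5.99 in ft-2, under the 6.80 and 6.79 of Ler. Its day 0 difference for co-2 minus Ler, -0.645, was the lowest of all members.

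AT4G30470 read 7.29 and 7.65 in co-2, 7.40 and 7.42 in ft-2, and 8.17 and 8.31 in Ler at day 3. It was lower on that day by -0.77 ± 0.14 in co-2 (limma adjusted p = 0.00212) and -0.83 ± 0.14 in ft-2 (0.000798), and at day 5 by -0.91 and -0.81. The day 3 call in co-2 was lost without Ler day 3 array 2 or co-2 day 3 array 1. AT2G35820, annotated to the ureidoglycolate hydrolase family, read 5.54 and 5.64 in co-2, 5.43 and 5.52 in ft-2, and 6.80 and 6.29 in Ler at day 5. Its differences of -0.96 ± 0.22 and -1.07 ± 0.22 were called (adjusted p = 0.00482 and 0.00137), and both were lost without Ler day 5 array 1. AT2G03550, of the carboxylesterase family, was called only in ft-2, by -0.76 ± 0.21 at day 3 (adjusted p = 0.0349) and -0.66 ± 0.21 at day 5 (0.0396). Its arrays read 6.93 and 6.81 in ft-2 and 7.66 and 7.59 in Ler at day 3, and both calls were lost without any 1 of their 4 arrays.

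AT5G06190 and AT5G64870 were called lower in both mutants at day 5, by -0.72 and -0.84 for the first and -0.79 and -0.56 for the second, a flotillin-like gene. AT5G06190 was also called lower in co-2 at day 3 (-0.57 ± 0.14, limma adjusted p = 0.0248), a call lost without Ler day 3 array 2 or co-2 day 3 array 1. AT1G75900, a GDSL-type lipase, was called in both, by -0.79 in co-2 and -0.59 in ft-2. AT5G20740, AT3G53310 and AT5G56220 were called only in ft-2 (-0.52, -0.63 and -0.55), and AT3G13662, a dirigent-like gene, only in co-2 (-0.69). Apart from AT5G06190, each of these day 5 calls was lost without at least 1 array. A call in 1 mutant and not in the other does not show that the mutants differ.

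**Figure D3:**
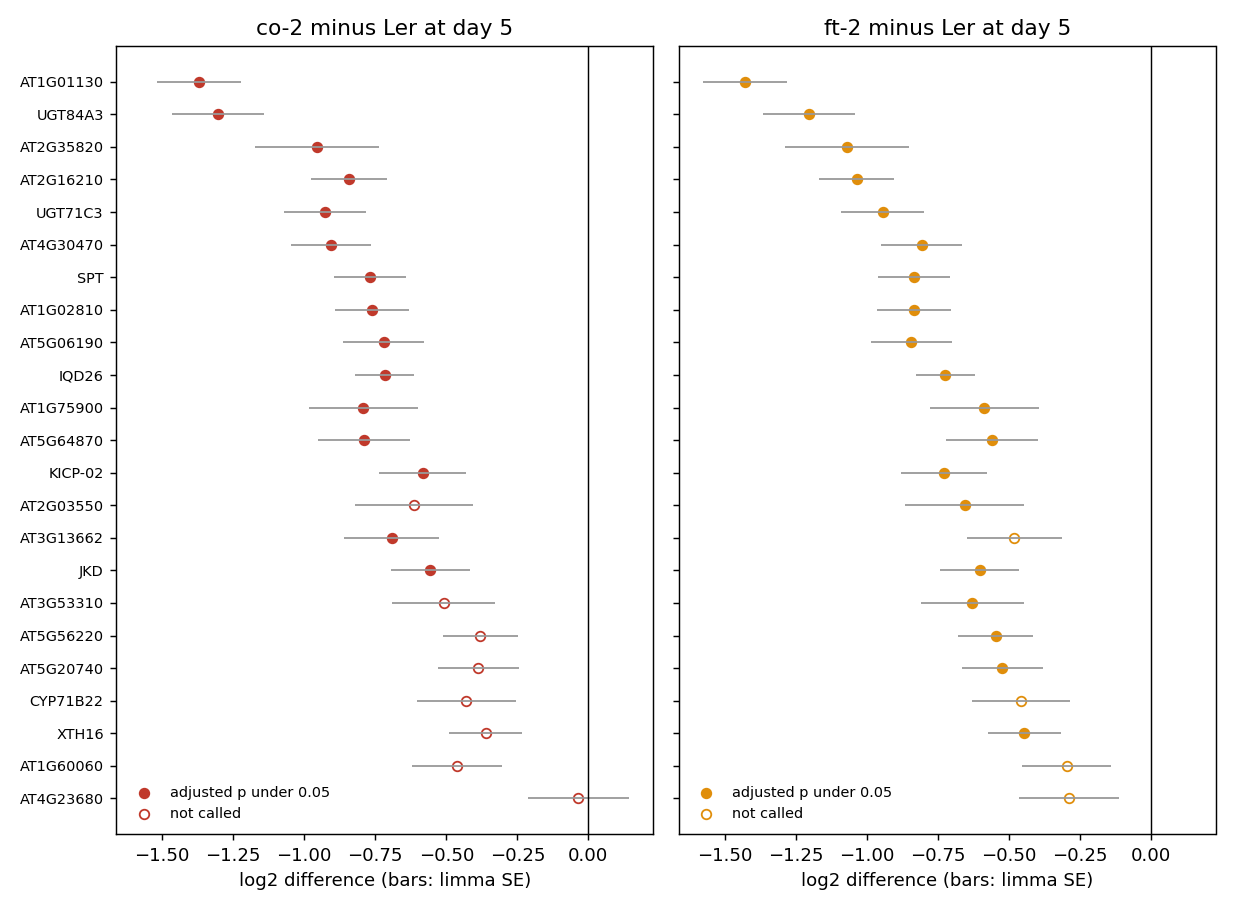
Differences in log2 signal at day 5 (horizontal axis) for the member genes with a single listed gene (vertical axis), co-2 minus Ler and ft-2 minus Ler, with bars of 1 limma standard error. AT1G01130 lies at -1.37 and -1.43, and AT4G23680 and CYP71B22 are among those not called in either mutant.

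The steepest shortfalls belonged to probe sets with no listed gene. The probe set 264363_at read 5.22 and 4.95 in co-2, 5.12 and 5.20 in ft-2, and 7.54 and 7.46 in Ler at day 5, which is 5.32-fold lower in co-2 and 5.04-fold lower in ft-2 (limma adjusted p = 7.78e-11 and 1.12e-10). It was early: Ler already read 7.22 and 6.94 at day 3, against 5.60 and 4.95 in co-2 and 5.46 and 5.53 in ft-2. The probe set 264041_at read 4.89 and 4.80 in co-2, 4.79 and 4.69 in ft-2, and 7.14 and 6.68 in Ler at day 5, and 246967_at read 4.13 and 4.22 in co-2, 4.17 and 4.30 in ft-2, and 6.27 and 5.74 in Ler. The probe sets 248011_at, 247162_at and 257129_at were lower at day 5 by -1.95, -1.92 and -1.66 in co-2 and by -2.04, -2.03 and -2.03 in ft-2.

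Earlier, at day 3, 15 members were lower in co-2 than in Ler (background 1.13% of all probe sets) and 16 were lower in ft-2 (background 1.63%). Both lists come from the same 2 Ler arrays. 12 members were called in both, all 12 of which were called in both again at day 5, and among the single genes these were AT1G01130, UGT71C3, AT4G30470 and SPT. At day 0, AT1G01130 already differed from Ler by -0.645 in co-2 and -0.693 in ft-2, and AT4G30470 by -0.08 and -0.32. UGT71C3 (0.08 and 0.10) and SPT (0.09 and 0.18) did not lie lower then. The share of all probe sets called lower in both at day 3 was not counted, but cannot exceed the 1.13% called in co-2. The median member differed by -0.34 in co-2 and -0.30 in ft-2, against -0.76 and -0.73 at day 5. Single arrays weigh on the day 3 counts. In co-2, 6 were called without Ler day 3 array 2 and 5 without co-2 day 3 array 1, which is 1 of the arrays with the other background's transcripts. In ft-2, 10 were called without Ler day 3 array 1, 9 without Ler day 3 array 2, 8 without ft-2 day 3 array 1 and 10 without ft-2 day 3 array 2.

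Between days 3 and 5, 30 of the 51 members rose in Ler by limma (background 1.23%), and the median change was 0.59 (range -0.10 to 1.76). For 45 members both Ler arrays of day 5 lay above both of day 3. Such a separation was also seen for 31 members in Col, 30 in lfy-12, 25 in ft-2 and 19 in co-2. Its share among all probe sets was not counted. Of the 30 members called in Ler, 25 were also lower in both mutants at day 5. Both results use the Ler day 5 arrays, and the same share among all probe sets that rose in Ler was not counted. 13 single genes were called: AT1G01130, AT1G02810, AT1G60060, AT1G75900, AT2G16210, AT3G53310, AT5G20740, AT5G56220, IQD26, JKD, KICP-02, UGT71C3 and UGT84A3. AT5G20740, of a family that inhibits invertase and pectin methylesterase, changed by 0.94 ± 0.14 (limma adjusted p = 0.000134), at 9.23 and 8.86 at day 5 and 7.94 and 8.27 at day 3. The count fell to 18 without Ler day 3 array 1, 14 without Ler day 3 array 2 and 10 without Ler day 5 array 1.

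In Col the same interval called 6 members (background 0.712%), with a median change of 0.24, and 4 of them were also called in Ler. The share of all probe sets called in both wild types was not counted. The single genes were AT2G16210 (0.65 ± 0.13, limma adjusted p = 0.00879), UGT71C3 (0.56), XTH16 (0.60) and CYP71B22 (1.13). Without 1 array at a time the count was 3 (Col day 3 array 1), 2 (Col day 3 array 2) and 2 (Col day 5 array 2). In lfy-12, 3 members were called (background 0.242%), with a median change of 0.16: CYP71B22, 248011_at and 246967_at. The count was 1 without lfy-12 day 3 array 2, 1 without lfy-12 day 5 array 1 and 2 without lfy-12 day 5 array 2, the array with the largest share of the other background's transcripts.

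In the mutants of the leaf signal, the interval called 1 member in co-2 (background 0.347%) and 0 in ft-2 (background 0.044%), where limma gave 5 members an unadjusted p under 0.05. How many of all probe sets had such a p was not counted. The median changes were 0.13 and 0.10. The 1 member in co-2 was 249337_at, singled out here after its values were seen. In co-2 it averaged 5.92 ± 0.11 at day 5 and 5.28 ± 0.08 at day 3 (SD, n = 2), a limma difference of 0.64 ± 0.14 (adjusted p = 0.0342). The co-2 count was 0 without co-2 day 3 array 1, 0 without co-2 day 5 array 1, 0 without co-2 day 5 array 2 and 2 without co-2 day 3 array 2. In ft-2 the same probe set differed by 0.69 ± 0.14 (adjusted p = 0.0592), which was not called and was the largest change of any member in ft-2 over this interval. At day 5 it stood at 6.004 and 5.843 in co-2, 5.71 and 5.83 in ft-2, and 5.88 and 5.60 in Ler. The Ler arrays overlapped those of either mutant, and both co-2 arrays lay above both ft-2 arrays. This probe set met the selection at day 7, where co-2 read 5.37 and 5.67 and ft-2 5.53 and 5.39.

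The difference between genotypes in the change from day 3 to day 5 was tested itself. It called 2 members for co-2 minus Ler (background 0.101%), UGT84A3 and 264041_at, and 7 for ft-2 minus Ler (background 0.167%), with UGT84A3, AT2G16210 and JKD among them. UGT84A3 differed by -1.07 ± 0.23 in co-2 (limma adjusted p = 0.0355) and by -1.09 ± 0.23 in ft-2 (0.0282). The median member differed by -0.40 for co-2 minus Ler and by -0.41 for ft-2 minus Ler. For co-2 the count was 1 without Ler day 3 array 2, 1 without Ler day 5 array 1, 1 without co-2 day 5 array 2, and 5 without Ler day 5 array 2 or without co-2 day 3 array 1. The ft-2 count was 1 without Ler day 3 array 2, 0 without Ler day 5 array 1, 2 without ft-2 day 3 array 1, 4 without ft-2 day 3 array 2, 3 without ft-2 day 5 array 1 and 2 without ft-2 day 5 array 2.

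The mutants were also set against each other. No member was called between ft-2 and co-2 at day 5 by limma, with 0 of 51 lower (background 0.0352%) and 0 higher (background 0.119%), while 5 had an unadjusted p under 0.05. That last count has no background, as its share among all probe sets was not counted. The median difference was -0.07 with a range of -0.37 to 0.52, and standard errors ran from 0.10 to 0.28. The largest belonged to 260592_at, singled out after its values were seen, which read 5.88 and 5.87 in ft-2 and 5.40 and 5.31 in co-2 (0.52 ± 0.18, adjusted p = 0.563). Its arrays did not overlap between the mutants, and a missed threshold does not show that the mutants act alike.

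Against Col, lfy-12 was called lower in 1 member of 51 at day 5 (background 1.53%) and in 1 at day 3 (background 1.13%). Counts of 1 in 51 are near these backgrounds, so they are no result about the set. In limma 11 and 9 members had an unadjusted p under 0.05, and the shares of all probe sets at that p were not counted. The median differences were -0.15 and -0.03. On both days the gene was CYP71B22, a cytochrome P450. It read 6.98 and 6.61 in lfy-12 and 7.69 and 7.44 in Col at day 5 (-0.77 ± 0.17, adjusted p = 0.0125), and 5.87 and 5.62 in lfy-12 and 6.47 and 6.40 in Col at day 3 (-0.70 ± 0.17, 0.0273). The day 5 call was lost without Col day 5 array 1 or lfy-12 day 5 array 2, and the day 3 call without any of its 4 arrays. The day 3 count was 0 without Col day 3 array 1, Col day 3 array 2 or lfy-12 day 3 array 2.

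CYP71B22 also differed in scale between the wild types. Across days 0, 3, 5 and 7 its mean climbed in Col to 8.23 and 8.60 at day 7 and in Ler to 6.59 and 6.34. It was 1 of 7 members called lower in neither mutant at day 5, with AT4G23680, AT1G60060, 249337_at, 264444_at, 252128_at and 254122_at. For these 7 the label of the set rests on the day 7 values that chose them. AT4G23680, of the major latex protein family, and 264444_at, 252128_at and 254122_at were called in none of the 14 contrasts. AT4G23680 read 4.42 and 4.16 in co-2, 4.17 and 3.91 in ft-2, and 4.21 and 4.44 in Ler at day 5, all under the lower quartiles of those arrays, and 6.29 and 5.74 in Ler at day 7. In 254122_at the 2 Ler arrays of day 0 read 6.33 and 5.01, a wide gap for a group whose mean enters the selection.

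**Figure D4:**
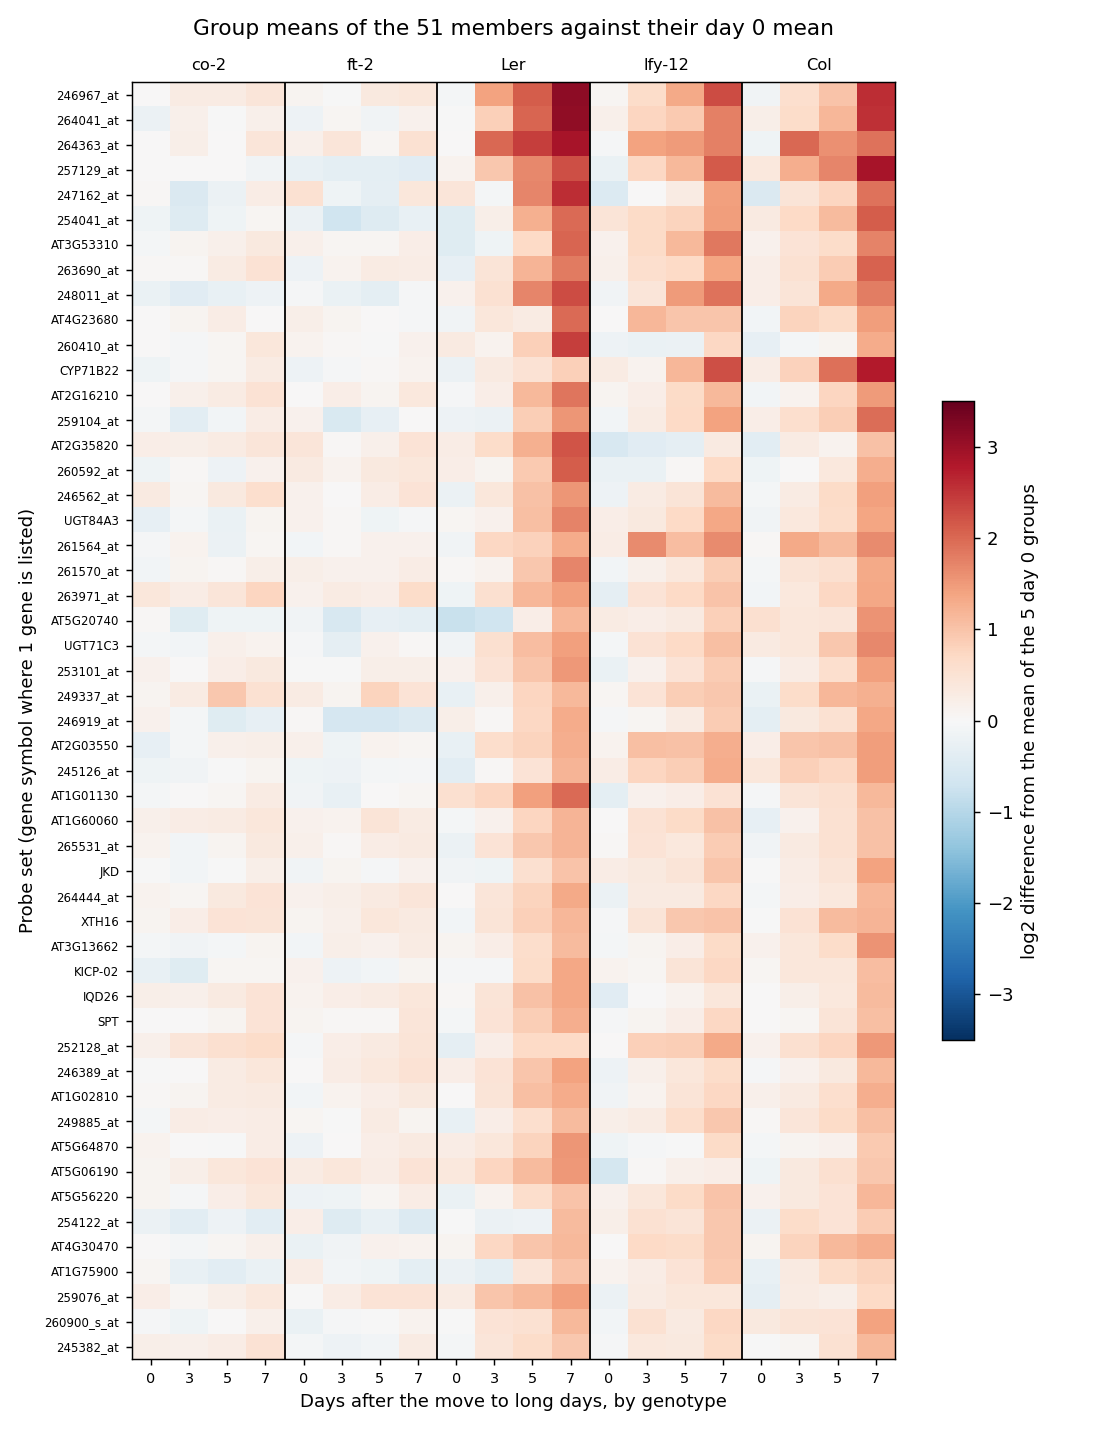
Group means of the 51 members (rows) at days 0, 3, 5 and 7 in the 5 genotypes (columns), coloured by log2 difference from the mean of each member's 5 day 0 groups. Most members are paler in the co-2 and ft-2 columns than in those of Ler, lfy-12 and Col at days 5 and 7, and 249337_at at day 5 is an exception.

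Across the 20 arrays of days 3 and 5, each member was correlated with the mean of the other members, as a description over arrays that share genotype and day. The median correlation was 0.794, with 25 members above 0.8 and 1 below 0.4. The members were chosen for a shared pattern over the same genotypes, which by itself favours such likeness, and no other set was compared. The most alike was 263690_at (0.9545), followed by UGT71C3 (0.9535). The least alike was AT2G35820 (0.348), whose Col arrays of day 5 (5.52 and 5.30) lay near the co-2 arrays (5.54 and 5.64) while Ler stood above them. Its mean signal was already unequal at day 0, at 5.55 in Ler and 4.93 in Col.

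Other genes of the photoperiod pathway were measured beside the members. Of 46 names in the list, 11 genes had a probe set listed for them alone, and none of these 11 is a member. Members with no listed gene could not be compared with the list. At day 5, 3 of the 11 were lower in co-2 than in Ler and 1 was higher, and 3 were lower in ft-2 and 2 higher. Over all probe sets, 2.77% were called lower and 6.83% higher in co-2, and 3.46% lower and 7.87% higher in ft-2. AGL42, a MADS-box promoter of flowering related to SOC1, was lower by -1.19 in co-2 and -1.62 in ft-2, and AGL71 by -0.76 and -0.74. From day 0 to day 7 the mean of AGL42 also climbed in both mutants, from 6.31 to 7.77 in co-2 and from 6.13 to 7.47 in ft-2. In Ler it began at 6.60. UFO, a floral F-box gene, met the selection itself before it was left out, and was lower by -1.36 and -0.97. The AP2-type floral repressors differed the other way: SMZ was higher by 0.82 in co-2 and 1.09 in ft-2, and SNZ by 0.58 in ft-2. At day 0 the mean of SMZ was 7.16 in co-2, 6.90 in ft-2 and 6.83 in Ler, and that of SNZ 6.33 in ft-2 and 6.07 in Ler. FD, GI, AGL24, AGL72, PUCHI and ATC were called in neither mutant at day 5. At day 3, AGL42 was lower in both (-0.99 and -1.17), and AGL71 and PUCHI in ft-2 (-0.39 and -0.55), where 1.13% of all probe sets were called lower in co-2 and 1.63% in ft-2.

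A marker of leaf tissue moved with the day 5 comparison. LHCB4.1, a light-harvesting protein, was higher by 0.34 in co-2 and 0.31 in ft-2 than in Ler (limma adjusted p = 0.0308 and 0.0446), and RCA, rubisco activase, was not called. These 2 of 9 leaf genes were the ones measured, and their summed linear signal at day 5 was 6883 and 7256 in co-2, 6685 and 7693 in ft-2, and 5255 and 5735 in Ler. Its part in the members' shortfall was not tested.

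The margins of the selection were thin for some members. In Col the member nearest the limit was AT5G64870 (1.01) and the nearest probe set outside it AT1G32190 (0.97). In Ler these were 252128_at (1.02) and P1R3 (0.9965), in co-2 AT2G03550 (0.494) and AT1G11125 (0.501), in ft-2 252128_at (0.499) and 260914_at (0.508), and for the ratio of lfy-12 to Col AT3G13662 (0.5003) and 267264_at (0.489). Without any 1 of the 20 arrays of days 0 and 7, between 41 and 57 probe sets met the selection, and 16 of the 51 members met it every time. Without ft-2 day 0 array 1, which carried some of the other background's transcripts, 47 probe sets met it, 45 of them members.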

How the data were processed

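Transcript signal was read from a table with 1 column for each of 40 arrays of shoot apex total RNA, grouped by the sample titles into 20 groups of 2. The deposited values, which the authors gave without a stated unit, were read as log2 signal and used as deposited: they run from 3.03 to 13.63, and a natural antilog of the highest would be 834443. The software and normalization behind them are not given in the sources used here. The 64 control probe sets were left out. All 40 arrays entered a linear model of 20 group means in limma 3.58.1 (R 4.3.3) with an intensity trend and 20 residual degrees of freedom. The 14 contrasts of days 3 and 5 were tested two-sided. Calls needed an adjusted p under 0.05 after Benjamini-Hochberg adjustment over 22746 probe sets. With 2 arrays a group, exact permutation has a smallest two-sided p of 0.333.

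Genes were named from the platform annotation, with symbols updated through RefSeq (TAIR10.1). Transcripts of the other background were quantified from probe sets over 3 log2 units higher in that background. Tested on simulated data, co-2 minus Ler at day 5 recovered 38 of 67 genes changed by 0.5, 65 of 67 changed by 1 and 65 of 66 changed by 2 on the log2 scale, and 11 of its 179 calls were false. The members and gene lists were chosen with earlier results of these data known. Every member with 1 listed gene is named. Given in full are the 8 such members with the largest mean shortfall among those called lower in both mutants at day 5, up to 4 called at day 3, and the members most and least like the rest. At most 6 probe sets without a gene are named by that order. Sequences of promoters and proteins were not used here. Alternatives were quantile normalization, a filter on a mean under 5, only the arrays of days 3 and 5, no trend, a replicate block, other selection limits, and leaving out arrays.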

Additional observations from a re-analysis of the deposited data

Results flagged for a closer look

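The change from day 3 to day 5 differed between a mutant and Ler, by limma's test of that difference itself, in 9 cases. For co-2 minus Ler these were 264041_at (-1.42) and UGT84A3 (-1.07). For ft-2 minus Ler they were 247162_at (-1.93), 264041_at (-1.41), 248011_at (-1.295), UGT84A3 (-1.09), AT2G16210 (-1.03), JKD (-0.87) and 263971_at (-0.67), on the log2 scale. Both sets use the same 4 Ler arrays. The UGT84A3 calls were lost without 5 of 8 arrays in each mutant, the AT2G16210 call without 4 of 8, and the JKD call without 6 of 8. Of 6 other alternatives, the JKD call was also lost in 4, the UGT84A3 call in 2 for co-2 and in 1 for ft-2. Groups of 2 arrays were too small for a check of single outlying arrays.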

How the results depend on the processing

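Direction was followed only for the 68 calls on members with 1 gene, and none of these reversed under any alternative run. Of the 68, 27 held under all of them, while 41 were lost without at least 1 array and 10 in another alternative. At day 5, 19 of the 34 such calls of a mutant against Ler held throughout. Under quantile normalization, 1 member was called in ft-2 day 5 minus day 3, 3 in lfy-12 minus Col at day 5 and 2 at day 3. The filter on low values gave 1 in ft-2 day 5 minus day 3, as did the fit with no trend. With only the arrays of days 3 and 5, 0 were called in co-2 day 5 minus day 3 and 4 in the co-2 minus Ler difference of changes. An alternative chosen after seeing the data left out the 3 arrays with the other background's transcripts: it gave 0 in co-2 day 5 minus day 3, 5 in co-2 minus Ler at day 3, 5 in the co-2 minus Ler difference of changes, 0 in lfy-12 minus Col at day 5 and 2 at day 3, and 40 and 44 for co-2 and ft-2 minus Ler at day 5. The cause was not tested. Other selection limits gave 68 and 33 members (at least 0.9 and 1.1 in the wild types) and 36 and 65 (under 0.4 and 0.6 in the mutants), and quantile normalization 47.

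Leaving out 1 array at a time gave 2 to 4 members for Col day 5 minus day 3, 10 to 27 for Ler, 1 to 2 for lfy-12, 0 to 2 for co-2 and 0 to 0 for ft-2. It gave 29 to 38 for co-2 minus Ler and 29 to 38 for ft-2 minus Ler at day 5, 5 to 14 and 8 to 10 at day 3, 1 to 5 and 0 to 6 for the differences of changes, 0 to 1 for lfy-12 minus Col at day 5 and 0 to 1 at day 3, 0 to 0 for ft-2 minus co-2, and 41 to 57 for the selection.

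With the replicate block, 39 members were called for co-2 minus Ler and 42 for ft-2 minus Ler at day 5, 30 in Ler day 5 minus day 3 and 18 for co-2 minus Ler at day 3, and no count moved by over 1.5 times. Over all alternatives together, 126 counts stayed within 1.5 times of the main count and 47 moved further. Same-numbered arrays share only a number: the correlations of their deviations ran from -0.502 to 0.404 over 190 pairs of groups.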
